A study of Mus musculus with 2 samples.

Results

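Laminins and the integrins that bind them were examined in 4T1-3R_L cells, the liver metastatic cells, against the 4T1 parental line. The members were 9 genes, of 18193 genes with a probe set annotated to a single gene. They are 5 integrin subunits on the receptor side (Itga3, Itga6, Itga7, Itgb1 and Itgb4) and 4 laminin chains on the ligand side (Lama3, Lama5, Lamb3 and Lamc1). All 21 probe sets annotated to exactly one of these symbols were taken. The rule named the genes and used none of their values, but the members were chosen with earlier results of these data known.

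4T1 is a mammary carcinoma line from a BALB/c mouse. The 4T1-3R_L cells were isolated from liver metastases that formed in vivo, and both populations were kept in culture, with no treatment of either stated in the labels. Total RNA of each was hybridised to 1 Affymetrix expression array per population. With no replicates there is no spread between cultures to set a difference against, so no test was run and each value describes these 2 arrays.

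A laminin is a cross-shaped trimer of 1 α, 1 β and 1 γ chain and is the protein on which a basement membrane is built. The α chain carries most of the integrin-binding activity. Integrins pair 1 α with 1 β subunit: the α subunits of Itga3, Itga6 and Itga7 each pair with the β subunit of Itgb1, while that of Itgb4 pairs only with that of Itga6. The α6 and β4 pair anchors basal epithelial cells through hemidesmosomes, whereas the pairs with the Itgb1 subunit connect to actin through focal adhesions. In the mammary gland, contact with laminin supports polarity and survival of the epithelium.

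Signals are MAS5 intensities, which combine the probes of a probe set into 1 value on a linear scale. They were read against a floor of 90.6, the median of all signals of both arrays, which stood in for background. A probe set at or above the floor on at least 1 array counts as measured, and 1 under it on both arrays gets no ratio. The log2 ratio is 4T1-3R_L over parental, so a ratio of 1 means a 2-fold higher signal in 4T1-3R_L cells. Where a gene has several probe sets, the one with the strongest mean log2 signal stands for it and the others are given beside it. Signals of different probe sets are not comparable with each other, so only ratios are set side by side.

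An alternative scaling used the hybridisation controls, spiked-in cRNAs of bacterial and phage origin. It lowers the log2 ratio of a probe set measured on both arrays by 0.58, so the ratios between 0 and 0.58 given here turn negative under it.

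Both arrays carried the same trimmed mean signal of 500.003. The carcinoma keratins Krt8 and Krt18 had signals of 21890.6 and 20614 in 4T1-3R_L cells, against 18784.3 and 23738.3 in parental cells. The other 3 of the 5 carcinoma epithelium markers were lower in 4T1-3R_L cells: the adhesion molecule Epcam had 1776.3 in 4T1-3R_L and 7535.7 in parental cells, Cdh1 had 5940.9 in 4T1-3R_L and 11787.2 in parental cells, and Krt7 had 9202.4 in 4T1-3R_L and 11944.5 in parental cells. The median log2 ratio of the 5 was -0.38. Liver and stromal cells also make laminins, so their markers were read on both arrays. All 3 named hepatocyte markers, all 5 endothelial and all 5 fibroblast and stellate cell markers stayed under the floor throughout, Alb, Pecam1 and Col1a1 among them. The summed signals of these lists were 63.4, 203.7 and 245.3 on the 4T1-3R_L array, and 64.5, 206.4 and 263.2 on the parental array. Of 5 leukocyte and Kupffer cell markers, 3 stayed under it too, the leukocyte antigen Ptprc among them. Cd68 had signals of 374 in 4T1-3R_L and 388 in parental cells. On its strongest probe set Csf1r had 88.1 in 4T1-3R_L, under the floor, and 1026.4 in parental cells. The other Csf1r probe sets had 69, under the floor, and 146.2 in 4T1-3R_L, against 435.2 and 252 in parental cells. With the strongest probe set of each gene, the summed signal of that list was 622 in 4T1-3R_L and 1506.4 in parental cells. The part of Csf1r-expressing cells in the results was not tested.

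Both the receptors and the laminin chains went both ways. Of the 5 receptor genes, 2 were higher in 4T1-3R_L cells by 2-fold or more and 0 were lower by that much. Of the 4 laminin chains, 0 were higher by 2-fold or more and 1 was lower by that much. The remaining 6 genes lay between. The same 2-fold step was reached upwards by 6.22% and downwards by 4.48% of all 11135 measured genes. All 9 members reached the floor on both arrays. Counted by probe set, 17 of the 21 were measured. Of these, 3 were higher by 2-fold or more, against 5.68% of all measured probe sets, and 1 was lower by that much, against 4.74%. Another 13 lay between.

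**Figure D1:**
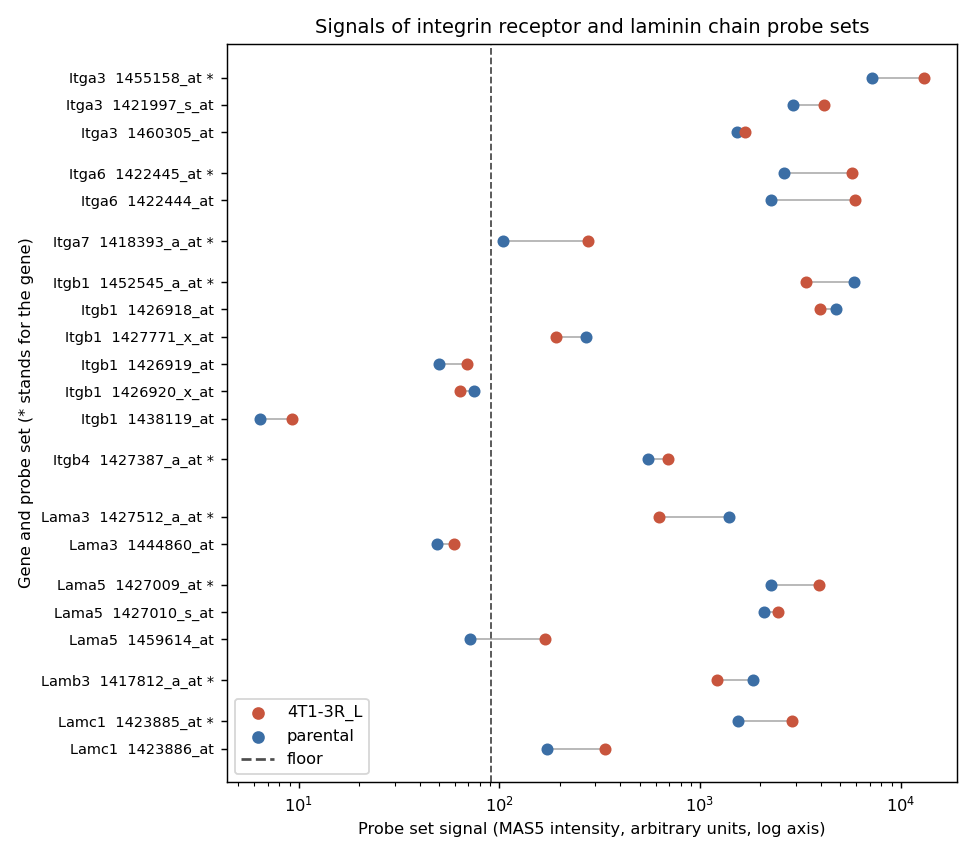
Signal of each of the 21 member probe sets (horizontal, MAS5 intensity in arbitrary units, log axis) in 4T1-3R_L cells (red) and parental cells (blue), receptors above laminin chains; a star marks the probe set that stands for its gene and the dashed line is the floor of 90.6. Red lies right of blue on every measured probe set of Itga3, Itga6, Itga7, Itgb4, Lama5 and Lamc1, and left of it on those of Itgb1, Lama3 and Lamb3. Scaled to the hybridisation controls instead, Itgb4, Itga3 1421997_s_at and 1460305_at and Lama5 1427010_s_at change side.

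Among the receptors, Itga6 was the member for which 2 strong probe sets both passed 2-fold. It encodes the α6 subunit, which serves both in hemidesmosomes with β4 and in focal contacts with β1, and is used as a surface marker of basal and stem-like mammary cells. Its probe set 1422445_at had a signal of 5692.1 in 4T1-3R_L cells, against 2626.8 in parental cells, a 2.17-fold higher signal with a log2 ratio of 1.12. Its probe set 1422444_at had 5936.2 in 4T1-3R_L cells, against 2261.8 in parental cells, which is 2.62-fold higher (log2 ratio 1.39). Both probe sets therefore showed the higher signal in 4T1-3R_L cells. Of all measured genes, 4.99% had a higher ratio than Itga6.

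Itga7, the α7 subunit best known as the laminin receptor of skeletal muscle fibres, had the highest ratio of the members but a low signal. Its only probe set, 1418393_a_at, had 276.4 in 4T1-3R_L cells, against 104.5 in parental cells, which is 2.64-fold higher (log2 ratio 1.40). The parental signal lay close to the floor of 90.6. With the floor raised to the 60th percentile of all signals, the log2 ratio was 0.71, under 2-fold. Of all measured genes, 2.86% had a higher ratio.

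Itga3 encodes the α3 subunit, an epithelial receptor that prefers laminins with α3 or α5 chains. Its 3 probe sets were higher in 4T1-3R_L cells by differing amounts, 2 of them turning to -0.08 and -0.45 when scaled to the hybridisation controls. Probe set 1455158_at had 13103.7 in 4T1-3R_L cells, against 7160.4 in parental cells (1.83-fold, log2 ratio 0.87). Probe set 1421997_s_at had 4143.5 in 4T1-3R_L and 2918.6 in parental cells (log2 ratio 0.51). Probe set 1460305_at had 1672.3 in 4T1-3R_L and 1528 in parental cells (log2 ratio 0.13). None of the 3 reached 2-fold, and the ratios on the log2 scale spanned 0.13 to 0.87 for the same RNA. The spread between measured probe sets of one gene, over 4737 genes with more than 1 of them reaching the floor on both arrays, was 0.40 (SD, log2).

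The β subunits did not follow the α subunits. Itgb1, the shared partner of all 3 α subunits, had a lower signal in 4T1-3R_L cells on each of its 3 measured probe sets. Probe set 1452545_a_at had 3392.5 in 4T1-3R_L cells, against 5834.2 in parental cells, which is 1.72-fold lower (log2 ratio -0.78). Probe set 1426918_at had 3959.5 in 4T1-3R_L cells, against 4775.1 in parental cells (log2 ratio -0.27), and the weaker 1427771_x_at had 192.3 in 4T1-3R_L and 271.2 in parental cells (log2 ratio -0.50). The size of the difference depended on the probe set: read on 1426918_at alone it was 1.21-fold. The other 3 Itgb1 probe sets were under the floor on both arrays, with signals of at most 74.8. On the representing probe set, 8.05% of measured genes had a lower ratio.

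Itgb4, the hemidesmosome subunit with the long cytoplasmic tail, had 691.5 in 4T1-3R_L cells on its only probe set, 1427387_a_at, against 552.8 in parental cells. Its log2 ratio of 0.32 was under 2-fold, and was -0.26 when the arrays were scaled to the hybridisation controls, so it has no settled direction. On the representing probe sets, the 3 α subunits thus had log2 ratios from 0.87 to 1.40. Those of the β subunits Itgb4 (0.32) and Itgb1 (-0.78) were lower. This order of α over β subunits was seen in the data and not chosen beforehand. It did not hold for every probe set, since 1460305_at of Itga3, at 0.13, lay below Itgb4.

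The laminin chains formed 2 pairs that ran opposite ways. Lama3 and Lamb3 encode the α3 and β3 chains. They are chains of the laminin of hemidesmosomes and anchoring filaments in skin and other stratified or glandular epithelia. Lama5 and Lamc1 encode the α5 and γ1 chains, which with the β1 chain of Lamb1 or the β2 chain of Lamb2 form the widespread laminin of adult epithelial and endothelial basement membranes.

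Lama3 was the member with the lowest ratio. Its probe set 1427512_a_at had 624.9 in 4T1-3R_L cells, against 1390.6 in parental cells, which is 2.23-fold lower (log2 ratio -1.15), and 2.99% of measured genes had a lower ratio. Its second probe set, 1444860_at, was under the floor on both arrays (59.5 in 4T1-3R_L and 48.6 in parental cells) and gives no second reading. Lamb3 had 1216.7 in 4T1-3R_L cells on its only probe set, 1417812_a_at, against 1826.9 in parental cells, 1.50-fold lower (log2 ratio -0.59). Both chains thus had the lower signal in 4T1-3R_L cells, each on 1 measured probe set.

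Lama5 and Lamc1 had higher signals in 4T1-3R_L cells on every measured probe set, although 1427010_s_at of Lama5 was at -0.34 when scaled to the hybridisation controls. Lamc1 had 2887.9 in 4T1-3R_L cells on 1423885_at, against 1554 in parental cells (1.86-fold, log2 ratio 0.89). On 1423886_at it had 335 in 4T1-3R_L cells, against 173.2 in parental cells (1.93-fold, log2 ratio 0.95). The 2 readings differed by little, and both stayed just under 2-fold. Lama5 had 3893.8 in 4T1-3R_L cells on 1427009_at, against 2269.4 in parental cells (1.72-fold, log2 ratio 0.78). On 1427010_s_at it had 2452.7 in 4T1-3R_L and 2073.6 in parental cells (log2 ratio 0.24). On 1459614_at it had 167.9 in 4T1-3R_L cells, against a parental signal of 71.7, under the floor, so at least 1.85-fold higher. Of all measured genes, 7.86% had a higher ratio than Lamc1 and 10.1% a higher ratio than Lama5.

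**Figure D2:**
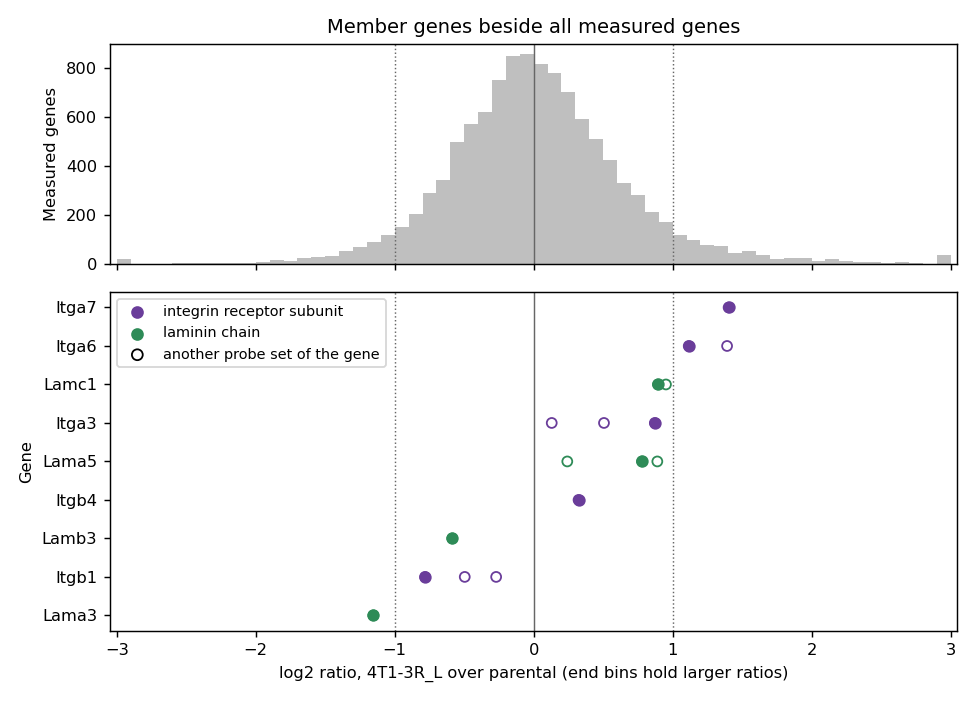
Upper panel: number of measured genes by log2 ratio, 4T1-3R_L over parental. Lower panel: log2 ratios of the 9 members, with filled points for the probe set that stands for the gene (purple for integrin subunits, green for laminin chains) and open points for other measured probe sets; the open Lama5 point at 0.89 is a lower bound, and dotted lines mark 2-fold. Itga7, at 1.40, and Itga6, at 1.12, lie beyond the upper dotted line and Lama3, at -1.15, beyond the lower one, while Itgb4, at 0.32, was at -0.26 when scaled to the hybridisation controls.

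Receptors and ligand chains were then set against each other. The median log2 ratio was 0.87 over the 5 receptor genes and 0.10 over the 4 laminin chains, a difference of 0.78, beside a median of -0.01 over all measured genes. The ranges overlapped: receptors ran from -0.78 to 1.40 and laminin chains from -1.15 to 0.89. The median of the laminin chains is the middle of a gap between 2 lower and 2 higher chains, so no chain lay near it. With probe sets ending in plain _at, which leave 3 receptor genes (Itga3, Itga6 and Itgb1) and 2 chains (Lama5 and Lamc1), the medians were 0.87 and 0.84 and the difference was 0.035. The difference between the 2 sides thus depended on Lama3 and Lamb3 being among the chains. It also depended on the probe sets read. With the median over the probe sets of a gene, the receptor median was 0.51 and that of the chains 0.10. The difference was then 0.41, with Lama3 and Lamb3 still among the chains.

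The remaining laminin chains showed a higher β1 and β2 chain signal. Of 6 other laminin chain genes with a single-gene probe set, 4 (Lama1, Lama2, Lama4 and Lamc3) were under the floor on both arrays, with signals of at most 52.7. Lamb1, which encodes the β1 chain, had 16114 in 4T1-3R_L cells, against 7928.8 in parental cells, 2.03-fold higher (log2 ratio 1.02). Its other 3 probe sets were higher too, with log2 ratios of 0.96, 0.85 and 0.54. Lamb2, which encodes the β2 chain, had 318.8 in 4T1-3R_L cells, against 155.8 in parental cells, 2.05-fold higher (log2 ratio 1.03), and 0.92 when the floor was raised to the 60th percentile. Quantile normalization (0.90 and 0.96) and loess (0.91 and 0.97) left Lamb1 and Lamb2 under 2-fold. On their representing probe sets, Lama5, Lamb1, Lamb2 and Lamc1, the chains of the α5 and γ1 laminins, had log2 ratios between 0.78 and 1.03. The lowest of their other probe sets were at 0.24 (Lama5) and 0.54 (Lamb1). Lama3 and Lamb3 lay at -1.15 and -0.59.

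Other basement membrane components were mostly near or above the median gene. Of the 7 that were measured, 3 were higher by 2-fold or more in 4T1-3R_L cells and 0 were lower by that much. Over all measured genes these shares were 6.22% and 4.48%, and the list median was 0.45. Col18a1, the collagen from which endostatin is cleaved, had 6955.5 in 4T1-3R_L cells, against 2689.2 in parental cells (2.59-fold, log2 ratio 1.37), and its other probe set had a log2 ratio of 1.41. Hspg2, which encodes the proteoglycan perlecan, was 2.49-fold higher (1743.8 in 4T1-3R_L against 700 in parental cells), but 1.38-fold on its second probe set. Ntn4, a netrin that binds the laminin γ1 chain, had 450.6 in 4T1-3R_L and 212.2 in parental cells, 2.12-fold higher. The type IV collagen chains Col4a1 (log2 ratio 0.45) and Col4a2 (-0.11), the heparan sulfate proteoglycan Agrn (-0.08) and the laminin linker Nid1 (0.39) lay between.

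Hemidesmosome genes were divided. Of 6 listed, Col17a1 and Krt5 were under the floor on both arrays. Plec, which encodes the plakin that ties the β4 tail to keratin filaments, had 7918.3 in 4T1-3R_L cells, against 4462.5 in parental cells (1.77-fold, log2 ratio 0.83), and a log2 ratio of 0.57 where its other measured probe set was read. Cd151, a tetraspanin that associates with laminin-binding integrins, had 6820.6 in 4T1-3R_L cells, against 3953.4 in parental cells (1.73-fold, log2 ratio 0.79), with its other 4 measured probe sets between 0.06 and 0.87. Dst, which encodes another plakin, was 2.31-fold higher on its strongest probe set, but its other 3 had log2 ratios of 0.38, -0.02 and -0.55. Krt14, a basal keratin of the filaments that end on hemidesmosomes, had 170.9 in 4T1-3R_L cells, against 5324.3 in parental cells, 31.2-fold lower.

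Of the laminin receptors outside the integrin family, Dag1 and Rpsa differed by less than 2-fold, and Bcam gave only a bound. Dag1, which encodes dystroglycan, had 3339.8 in 4T1-3R_L cells, against 2860.3 in parental cells (log2 ratio 0.22, but -0.36 when scaled to the hybridisation controls). Bcam, the Lutheran glycoprotein that binds the laminin α5 chain, had 73.8 in 4T1-3R_L cells, under the floor, against 137.9 in parental cells, at least 1.52-fold lower, and its log2 ratio was -0.90 with the floor lowered to the 40th percentile. Rpsa, a ribosomal protein also described as a laminin receptor, had a log2 ratio of 0.40 (-0.18 when scaled to the hybridisation controls), and its many processed pseudogenes may share probe sequence.

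Integrin adaptors and kinases had a median log2 ratio of 0.66 over 12 measured genes. Of these ratios 9 were above 0 and 3 below it, against 49.5% above 0 among all measured genes. Only Fermt2, which encodes the integrin activator kindlin-2, passed 2-fold among the 12, with 3947.2 in 4T1-3R_L cells, against 1923.8 in parental cells (2.05-fold, log2 ratio 1.04). It was 1.76-fold higher on its second probe set. Below the threshold were the kinase Src (log2 ratio 0.92), zyxin, Zyx (0.83), paxillin, Pxn (0.77), and talin, Tln1 (0.67), which binds β subunit tails. Those 4 were named after their values were seen. Their other measured probe sets had log2 ratios of 0.65 (Src), at least 0.08 (Zyx), 0.65 and -0.03 (Pxn), and 0.12 and 1.24 (Tln1). With the median over the probe sets of a gene, the median of the 12 was 0.39. Ptk2 and Fermt1 were not analysed here.

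Of 3 genes for laminin-processing proteases, Tll1 was under the floor on both arrays. Mmp14, a membrane-bound metalloproteinase that can cleave laminin, had 5769.7 in 4T1-3R_L cells, against 2638.3 in parental cells (2.19-fold, log2 ratio 1.13, and 0.76 and 0.63 on its other probe sets). Bmp1, a protease that trims laminin chains, had a log2 ratio of 0.77 on its strongest probe set and 0.41 on its other measured one. Among 11 measured integrin subunits outside the laminin-binding group, the median log2 ratio was 0.06. Of them 0 were lower by 2-fold or more and 3 were higher by that much, against 4.48% and 6.22% of all measured genes. These were Itga8 (at least 2.81-fold) and Itga1 (at least 2.54-fold), both under the floor in parental cells and under 2-fold when the floor was raised to the 60th percentile, and Itga5 (2.15-fold). Itgb6, the epithelial partner of Itgav, had 73.9 in 4T1-3R_L cells, under the floor, against 178.5 in parental cells, at least 1.97-fold lower. It was chosen after its values were seen. Its log2 ratio was -1.03 after quantile normalization, -1.05 after loess and -1.27 with the floor lowered to the 40th percentile, each past 2-fold, but -0.08 with the floor raised to the 60th.

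**Figure D3:**
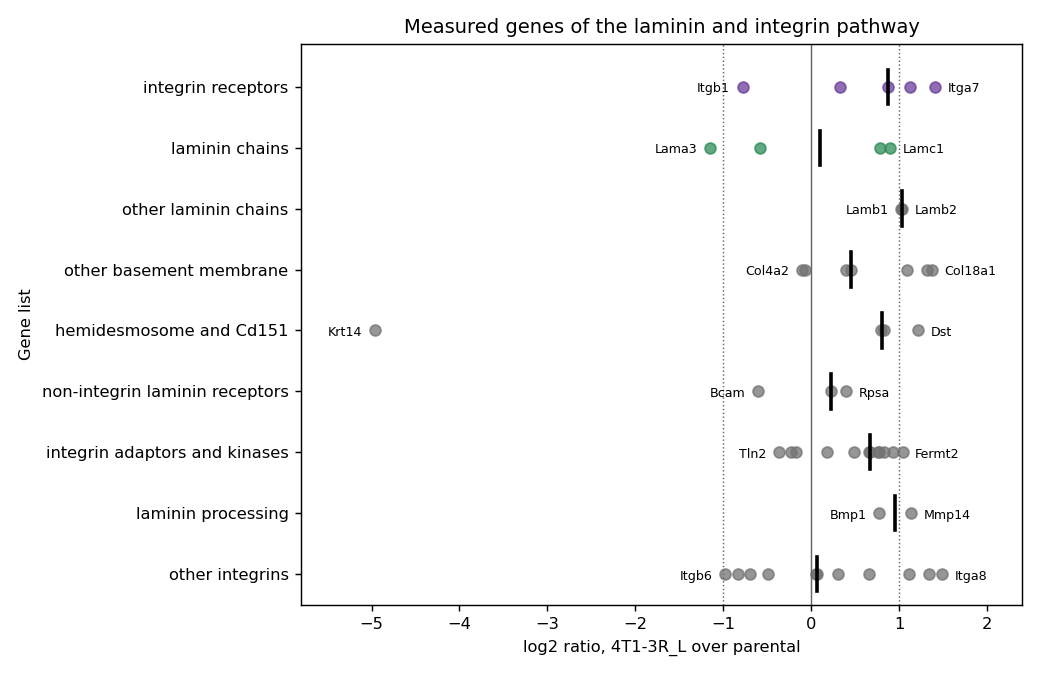
Log2 ratio, 4T1-3R_L over parental, of each measured gene of the members (purple and green) and of 7 related lists (grey), with a black bar at each median and the lowest and highest gene of each list named; values of genes under the floor on 1 array (Bcam, Itga1, Itga8, Itgb6 and Itgb7) are bounds. Receptors have a median of 0.87 and member laminin chains of 0.10, and Krt14 lies far to the left at -4.96. Scaled to the hybridisation controls, the medians of the member chains (-0.49), other basement membrane (-0.13), non-integrin receptors (-0.36) and other integrins (-0.40) were below 0, against -0.55 for all measured genes.

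Over all 7 related lists, 52 of 56 genes had a single-gene probe set and 41 were measured. Of these 11 were higher by 2-fold or more and 1, Krt14, was lower by that much, with a median log2 ratio of 0.65. Over all measured genes, 6.22% were higher and 4.48% lower by that much, with a median of -0.01. With the median over the probe sets of a gene, 7 list genes were higher and 1 lower, beside 566 and 429 of all 11135 measured genes. The list median was then 0.33, against -0.02 over all measured genes. Scaled to the hybridisation controls instead, 2 of 41 list genes were higher and 5 lower, beside 247 and 2335 of 11308 measured genes. The list median was 0.07 under that scaling, against -0.545 over all measured genes.

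Members with ratios in opposite directions are shown with their promoters, 1 lower and 1 higher on each side: the receptors Itga3 (higher) and Itgb1 (lower), and the laminin chains Lama5 (higher) and Lamb3 (lower). Promoter sequences from RefSeq on GRCm38.p6 matched these 4 of the 9 members. Each window is the 250 bases before the transcription start farthest upstream and is written 5′ to 3′ on the gene's strand. Capitals mark GGGCGG, the box bound by Sp family factors, and CACCTG, the E-box bound by Snail and Zeb repressors, on either strand and with no overlap between the 2 motifs. The arrays do not show which start was used.
Itga3, chr11:95076715-95076964, minus strand: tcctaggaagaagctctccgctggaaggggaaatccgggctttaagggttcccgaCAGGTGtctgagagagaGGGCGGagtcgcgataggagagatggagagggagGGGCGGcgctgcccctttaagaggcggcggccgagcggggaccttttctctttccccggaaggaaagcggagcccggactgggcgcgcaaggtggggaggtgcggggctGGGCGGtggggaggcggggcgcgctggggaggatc
Itgb1, chr8:128685404-128685653, plus strand: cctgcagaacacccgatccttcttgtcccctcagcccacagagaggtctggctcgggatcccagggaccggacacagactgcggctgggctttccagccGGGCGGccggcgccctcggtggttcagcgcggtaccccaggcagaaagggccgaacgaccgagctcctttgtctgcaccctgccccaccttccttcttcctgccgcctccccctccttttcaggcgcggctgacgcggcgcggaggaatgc
Lama5, chr2:180225860-180226109, minus strand: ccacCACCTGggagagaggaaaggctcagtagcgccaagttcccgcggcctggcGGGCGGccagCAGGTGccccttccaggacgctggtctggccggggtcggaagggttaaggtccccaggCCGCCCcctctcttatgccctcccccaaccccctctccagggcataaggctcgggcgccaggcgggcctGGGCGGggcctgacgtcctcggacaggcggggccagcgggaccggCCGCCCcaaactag
Lamb3, chr1:193301744-193301993, plus strand: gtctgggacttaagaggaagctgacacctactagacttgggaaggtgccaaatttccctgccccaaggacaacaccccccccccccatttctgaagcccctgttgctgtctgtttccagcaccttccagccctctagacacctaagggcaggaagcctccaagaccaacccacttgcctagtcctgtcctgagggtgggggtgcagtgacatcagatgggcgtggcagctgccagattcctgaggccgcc

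The window of Lama5 held GGGCGG 4 times and CACCTG 2 times, and that of Itga3 held them 3 times and 1 time. The window of Itgb1 held GGGCGG 1 time and CACCTG 0 times, and that of Lamb3 held neither. Of 32851 promoter windows of the same length, 32.7% held GGGCGG and 17.2% held CACCTG. The G and C content was 67.6% in Itga3, 68% in Itgb1, 72.4% in Lama5 and 58.8% in Lamb3, against a median of 52.4%. Lamb3 had 2 CpG dinucleotides in its window and the other 3 had 19 to 22, against a median of 6. A match describes these letters and is not a binding site or a cause.

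Scaling to the hybridisation controls lowered the log2 ratio of all 9 members. All 18 hybridisation control probe sets had higher signals on the 4T1-3R_L array, with a median log2 ratio of 0.58. This scaling also took the median of all measured genes to -0.545. Under it Itga6 had a log2 ratio of 0.53 and Itga7 of 0.82, no longer 2-fold higher, while Itgb1 (-1.36) and Lamb3 (-1.17) joined Lama3 (-1.74) at least 2-fold lower. The difference between receptor and ligand medians was 0.78 under this scaling as well, since a common factor cancels in it.

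**Figure D4:**
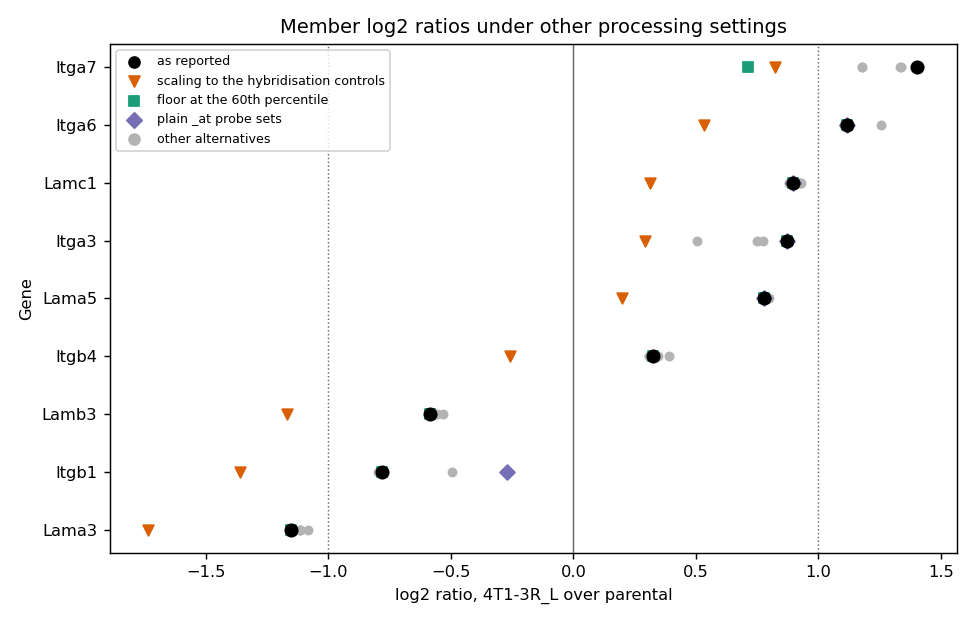
Log2 ratio of each member, 4T1-3R_L over parental, as reported (black) and under 10 other processing settings, of which 3 are marked by colour and shape and the others are grey; dotted lines mark 2-fold. Scaling to the hybridisation controls (orange) moves every member to the left, takes Itga6 and Itga7 inside 2-fold, turns Itgb4 to -0.26 and takes Itgb1 and Lamb3 beyond 2-fold lower.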

How the data were processed

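The deposited table gives 1 linear intensity per probe set and array, made by the authors with MAS5, per the submitters' processing notes. Not given in the sources used here are the MAS5 version, its scaling target, the detection calls and a genome build. The value table holds 45101 probe sets, 64 of them controls. The platform annotation given with it names 1 gene for 34945 other probe sets and several for 932, and 9160 are not listed there.

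Arrays were scaled to a common mean that left out the lowest and the highest 2% of probe sets, which left them as deposited. Signals under the floor were set to it before log2. The representing probe set, the lists and the partner genes named whatever their values follow a written rule that also names up to 3 genes per list at least 2-fold apart. With 2 arrays, no measure of likeness between genes could be formed. The members and lists were chosen with earlier results of these data known. The procedure was run on simulated data with planted changes larger than those of the members, in genes above the floor on both arrays. That run does not cover changes of the members' size or signals near the floor. Alternatives were median centring, quantile normalization, loess, scaling to the hybridisation controls, floors at the 40th and 60th percentiles (56.4 and 168.8), a pseudocount of 32 (once keeping unmeasured genes as well), the median over probe sets, and plain _at probe sets. The work used Python 3.11.15 with pandas 2.3.3 and statsmodels 0.14.6.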

Additional observations from a re-analysis of the deposited data

How the results depend on the processing

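No paired analysis was possible because each group has 1 array and no test was run. A member at least 2-fold apart as reported counted as the same where it stayed so in the same direction. One under 2-fold in both readings counted as moved where its log2 ratio shifted by at least 0.40. That is the spread between probe sets of a gene. Median centring, quantile normalization, loess, the floor at the 40th percentile, both pseudocount settings and the median over probe sets left each member on its side of 2-fold and moved none by that much. With the floor at the 60th percentile Itga7 was at 0.71, under 2-fold. With plain _at probe sets Itgb1 was at -0.27, the median of the chains was 0.84 and the difference between sides 0.035, and 0 member probe sets were at least 2-fold lower; Itga7, Itgb4, Lama3 and Lamb3 have no measured probe set of that kind, by construction of the setting.

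Scaling to the hybridisation controls gave log2 ratios of 0.29 for Itga3, 0.53 for Itga6, 0.82 for Itga7, -1.36 for Itgb1, -0.26 for Itgb4, 0.20 for Lama5, -1.17 for Lamb3 and 0.31 for Lamc1. The medians were 0.29 for receptors and -0.49 for chains, 0 member probe sets were at least 2-fold higher and 4 lower, and 247 of all measured genes were at least 2-fold higher and 2335 lower, against 693 and 499 as reported. This follows from dividing 4T1-3R_L signals by 1 factor. Of the related lists 2 genes were then higher and 5 lower. The median over probe sets gave 7 higher genes on those lists, as Lamb1 (0.905), Hspg2 (0.891), Dst (0.181) and Mmp14 (0.755) fell under 2-fold. Quantile normalization, loess and the floor at the 40th percentile each gave 2 lower ones, Krt14 and Itgb6. Lama3 stayed at least 2-fold lower in the 9 alternatives that gave it a value, from -1.74 to -1.08. Signals near the floor, as for Itga7, Lamb2 and Bcam, limit those ratios.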
